A study of Mus musculus with 58 samples.

Results

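Lysate RNA from the striatum of male mice with a hemi-mutation in Taok2, Sez6l2 and Mvp (3g del/+ mice) was compared with lysate RNA from wildtype (wt) males of the same line. The comparison rests on 6 of the 58 libraries of the series, 3 from del/+ and 3 from wt animals, which were taken by their labels. Both genotypes carry the same labels for tissue (striatum), sex (male) and strain (B6129S). By the study's methods the line was made with CRISPR/Cas9 editing of embryos from C57BL/6J males, which placed a premature stop codon in an early exon of 1 copy of each gene, and mice were littermates aged 10 to 14 weeks unless stated otherwise. The methods do not describe these libraries, so the age and the littermate status of these 6 animals are not given by their own labels. The line used below for comparison is labelled 16p11.2 del/+, and the study describes it as a model of the 16p11.2 hemi-deletion.

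A premature stop codon marks a transcript for nonsense-mediated mRNA decay, a surveillance pathway that degrades messages whose reading frame ends too early. Loss of message from 1 of a pair of alleles therefore lowers, but does not abolish, the amount of RNA counted for a gene, and a message that escapes decay is counted like an intact one. Taok2 encodes a kinase of the TAO family that acts upstream of p38 and JNK signaling and shapes dendrites and synapses. Sez6l2 encodes a transmembrane protein of the Sez6 family on the surface of neurons, and Mvp encodes the major protein of vaults, large ribonucleoprotein particles of the cytoplasm. The genes lie in the part of mouse chromosome 7 that matches human 16p11.2, a locus whose loss is linked to neurodevelopmental disorders. The striatum is built mostly from spiny projection neurons and takes part in movement and motivation.

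The libraries held between 16249270 and 19122488 counts, and between 37.7% and 45.2% of these belonged to the 13 mitochondrially encoded protein genes, against 4.87% to 6.01% in the RNA-seq libraries of other 3g males. All 18 tested markers shared by spiny projection neurons and all 4 Y-linked genes were detected. Within a genotype the Pearson correlation of log2 CPM between libraries was between 0.983 and 0.985, and between genotypes it was between 0.981 and 0.987. The first principal component took 26.2% of the variance and had del/+ 2 and wt 2 at its ends, and it did not separate the genotypes. Whether each library came from a separate extraction is not stated, so p-values measure the spread between these libraries.

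To determine whether the 3 mutated genes were lowered, their levels were compared in CPM, which is a gene's count divided by the library's total after TMM scaling and put on 1 common scale. Sez6l2 (ENSMUSG00000030683) was at 80.5, 82.3 and 78.4 CPM in wt 1, wt 2 and wt 3 and at 52.95, 57.8 and 56.7 CPM in del/+ 1, del/+ 2 and del/+ 3. The genotypes did not overlap, with each del/+ value below the lowest wt value. Its log2 fold change, del/+ minus wt, was -0.53 (standard error, SE, 0.094), which puts the del/+ level at 69.5% of wt (95% interval 60.4% to 79.9%). By edgeR (quasi-likelihood F-test, p adjusted over all genes by Benjamini-Hochberg) its adjusted p was 0.109, so it was not called at 0.05, whereas DESeq2 gave it an adjusted p of 0.00116. Over the alternatives listed in the closing section its adjusted p ran from 0.00116 to 0.955, while its log2 fold change stayed between -0.55 and -0.48.

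Taok2 (ENSMUSG00000059981) was at 102, 112 and 95.04 CPM in the wt libraries and at 84.2, 102 and 99.96 CPM in the del/+ libraries, and the genotypes overlapped. Its log2 fold change was -0.11 (SE 0.11, edgeR adjusted p = 0.962), with a del/+ level of 92.6% of wt and a 95% interval of 78.9% to 109%. Mvp (ENSMUSG00000030681) was a gene of low counts here, at 2.79, 3.57 and 4.12 CPM in the wt and 3.66, 2.85 and 3.45 CPM in the del/+ libraries, which is 46 to 70 counts per library. Its genotypes overlapped as well, and its log2 fold change was -0.067 (SE 0.24, edgeR adjusted p = 0.987), a level of 95.4% of wt with a 95% interval of 67.2% to 136%. A difference of the size seen for Sez6l2 lies outside the interval of Taok2 and inside that of Mvp. By qPCR of the striatum, the study reported lower mRNA of each mutated gene, Taok2 and Mvp included. Levels by qPCR and sequencing counts are unlike measures, and whether they differ for these genes was not tested.

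Across all genes, 3 of the 14378 that passed the filter on low counts were called by edgeR at an adjusted p under 0.05, or 0.0209%. Cfap54 and Ndn fell and Rpl29 rose in del/+ mice. The median log2 fold change of all tested genes was -0.0014. Without adjustment, 707 genes (4.92%) had a p under 0.05, of which 410 (2.85% of those tested) were higher and 297 (2.07%) lower in del/+ mice. All 3 del/+ values lay above all 3 wt values in 610 genes (4.24%) and below them in 778 genes (5.41%). DESeq2 called 13 of 18272 genes (0.0711%), which include the 3 called by edgeR. Among the 4315 genes with a mean log2 CPM above 5, the absolute log2 fold change was under 0.38 for 99% and under 0.08 for 50%.

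Cfap54 (ENSMUSG00000020014), which encodes a protein of motile cilia and sperm flagella, was at 54.7, 53.2 and 46.6 CPM in the wt libraries and at 23.2, 19.5 and 16.1 CPM in the del/+ libraries. The highest del/+ value was under the lowest wt value by more than the whole range of either genotype. It fell by 1.39 on the log2 scale (SE 0.13, edgeR adjusted p = 0.000603), to 38.1% of the wt level (95% interval 31.3% to 46.3%).

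Ndn (ENSMUSG00000033585) encodes necdin, a MAGE family protein of neurons from an imprinted locus that is expressed from the paternal copy. It was at 39.1, 43.7 and 41.0 CPM in the wt libraries and at 20.1, 21.2 and 21.6 CPM in the del/+ libraries, so that the libraries fell into tight and separate groups. It fell by 0.98 on the log2 scale (SE 0.10, edgeR adjusted p = 0.0011), to 50.8% of wt (95% interval 43.7% to 59.2%). Ndn lies on chromosome 7 as do the mutated genes, but its 10 neighbours on either side in the gene order of RefSeq (GRCm38.p6) include none of them. Of these 20 neighbours, 2 had an unadjusted p under 0.05. They were the adjacent imprinted gene Snrpn, a spliceosome component gene, with a log2 fold change of 0.33, and Mtmr10 with one of -0.36, and neither was called. Magel2, the adjacent member of the same gene family, had a log2 fold change of -0.07 (edgeR adjusted p = 0.987).

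Rpl29 (ENSMUSG00000048758), a protein of the large ribosomal subunit, was at 8.41, 6.396 and 6.42 CPM in the wt libraries and at 18.2, 20.1 and 16.4 CPM in the del/+ libraries. It rose by 1.36 on the log2 scale (SE 0.15, edgeR adjusted p = 0.00135), to 256% of wt (95% interval 205% to 320%), and each del/+ value was above the highest wt value. The wt libraries held 102 to 160 of its counts and the del/+ libraries 289 to 328. Ribosomal protein genes have many processed pseudogenes, and how reads that match several places were counted is not given in the sources used here, so the level of Rpl29 is uncertain on that account.

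**Figure D1:**
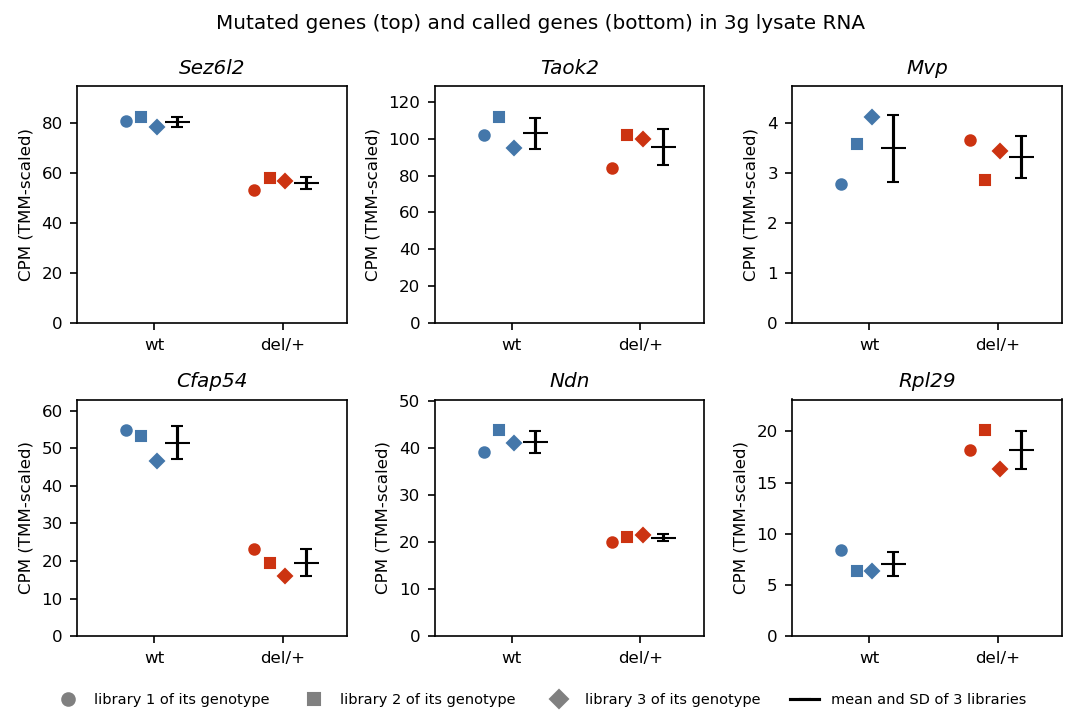
Level in CPM (vertical axes, each from 0) of the mutated genes Sez6l2, Taok2 and Mvp and of the called genes Cfap54, Ndn and Rpl29 in each of the 6 libraries (blue, wt; red, del/+; black, mean and SD of 3). The groups do not overlap for Sez6l2, Cfap54, Ndn and Rpl29, and they overlap for Taok2 and Mvp.

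An exact 2-sided permutation test of the log2 CPM of a single gene cannot go below p = 0.1 with 3 against 3 libraries. By this exact test Sez6l2, Cfap54, Ndn and Rpl29 reached that smallest value, whereas Taok2 had p = 0.4 and Mvp p = 0.8. The 3 calls were kept by edgeR without any 1 of the 6 libraries and with limma-voom. With all 13 lysate libraries of both lines in 1 fit, only Ndn was called, and the adjusted p was 0.0777 for Rpl29 and 1.00 for Cfap54.

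Outside the calls, the genes of smallest p in each direction are described here although edgeR called none of them. DESeq2 called 9 of them, namely Olfr285, Fosb, Poc1a and Tmem44, which were higher in del/+ mice, and Fbxo6, Hdhd2, Gm20390, Zfp990 and Mxra8, which were lower, with adjusted p between 4.72e-06 and 0.0285. Of those higher in del/+ mice, Olfr285, an olfactory receptor gene, was at 88.4, 84.5 and 71.4 CPM in wt and at 120, 141 and 162 CPM in del/+ libraries (log2 fold change 0.79, edgeR adjusted p = 0.0567). It had between 1212 and 2871 counts in the lysate libraries of the 3g line, but at most 1 count in any of the 16 RNA-seq libraries. Fosb, an activity-induced transcription factor gene, was at 9.88, 12.3 and 9.43 CPM in wt and at 17.6, 19.1 and 18.5 CPM in del/+ libraries, with no overlap (log2 fold change 0.81, edgeR adjusted p = 0.065). Poc1a, a centriole protein gene, and Abhd14a, a hydrolase gene, had log2 fold changes of 1.29 and 0.96 at low levels of 1.94 to 6.88 and 3.07 to 9.45 CPM. Tmem44, Lztfl1 (a regulator of transport into cilia), Washc1 (a component of the endosomal WASH complex), Pcdhgc4 (a clustered protocadherin), Gm48551 and Lrrn4 followed, with log2 fold changes between 0.47 and 1.37.

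Of those lower in del/+ mice, Fbxo6, an F-box protein gene of glycoprotein degradation, was at 14.04, 20 and 12.7 CPM in wt and at 7.76, 7.94 and 7.35 CPM in del/+ libraries (log2 fold change -1.02, edgeR adjusted p = 0.065). An identifier named Hdhd2 (ENSMUSG00000117732), whose symbol is shared by another identifier, was at 4.52, 3.26 and 3.59 CPM in wt and at 0.943, 0.682 and 1.41 CPM in del/+ libraries (log2 fold change -1.89, edgeR adjusted p = 0.065). Neither overlapped between the genotypes. The others were Zfp990, Gm20390, Mxra8, Hjurp (a chaperone of the centromeric histone), Gm48552, Ttc34 and Lsmem2, with log2 fold changes between -3.36 and -1.16. Gm20390 had 3 to 89 counts in the lysate libraries of the 3g line and at most 2 in any RNA-seq library of the line. Zfp990, Gm20390, Gm48552 and Lsmem2 were under 1 CPM in the del/+ libraries, and Hjurp was the only 1 of the genes named here for either direction whose genotypes overlapped, with 11.1, 28.3 and 43.8 CPM in wt and 7.21, 8.37 and 11.7 CPM in del/+ libraries.

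**Figure D2:**
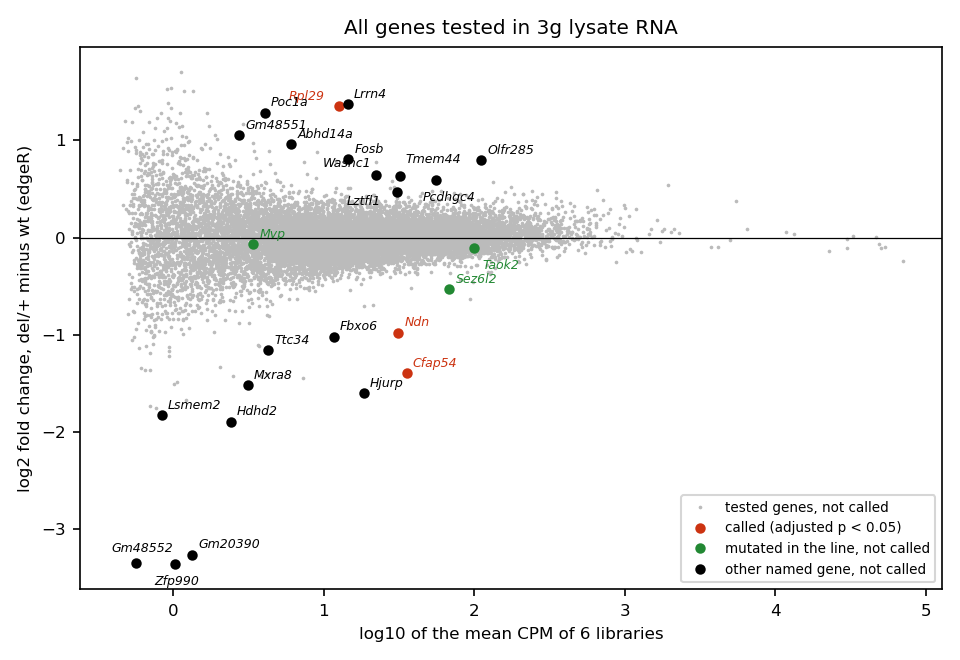
Log2 fold change of del/+ minus wt (vertical axis) against the log10 of the mean CPM of the 6 libraries (horizontal axis) for each of the 14378 genes tested. Cfap54 and Ndn lie below and Rpl29 above the cloud of genes of like level, Sez6l2 lies at its lower edge, and Taok2 and Mvp lie within it.

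Some of these genes are neighbours on the chromosome, which was noticed after their values were seen. Rpl29 lies on chromosome 9, and of the 20 tested neighbours around it 4 had an unadjusted p under 0.05, all higher in del/+ mice. These were Poc1a and Abhd14a, Dusp7, a phosphatase gene of the ERK cascade that sits directly beside Rpl29 (log2 fold change 0.25, 50.8, 47.8 and 50.4 CPM in wt and 60.8, 60.6 and 55.9 CPM in del/+ libraries), and Gpr62 (log2 fold change 0.43). Of the genes between and beside them, Alas1, next to Poc1a, had a log2 fold change of -0.06, Acy1, between Rpl29 and Abhd14a, had one of 0.29 with overlapping values, and Abhd14b had one of 0.06. On chromosome 4, Fbxo6 had 5 of 20 neighbours with an unadjusted p under 0.05. Fbxo44, directly beside it, was higher in del/+ mice (34.4, 29.5 and 34.5 CPM in wt and 41.0, 43.9 and 44.0 CPM in del/+ libraries), and Masp2 was lower, with a log2 fold change of -1.76. Of the 18 genes with an unadjusted p under 0.001 that could be placed, 4 each lay on chromosomes 4 and 9 and 3 on chromosome 7. The share of genes with an unadjusted p under 0.05 was 6.09% on chromosome 4, 4.76% on chromosome 9 and 6.11% on chromosome 7, against 4.92% over all genes. No neighbour of Rpl29 or Fbxo6 was called by edgeR, while DESeq2 called Poc1a (adjusted p = 0.0171).

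The other genes of the chromosome 7 interval were read beside the mutated genes. An edgeR test that did not call Sez6l2 cannot show that such a gene was left untouched. Of 26 listed symbols, 19 genes were tested and 0 were called by edgeR or DESeq2. With 1 higher and 1 lower at an unadjusted p under 0.05 and a median log2 fold change of 0.03, they stood beside shares of 2.85% and 2.07% over all genes. Asphd1, directly beside Sez6l2 in the RefSeq order, was at 20.1, 19.25 and 20.03 CPM in wt and at 21.7, 24.9 and 27.6 CPM in del/+ libraries (log2 fold change 0.32, edgeR adjusted p = 0.94). Gdpd3, a lysophospholipase gene, was at 6.99, 8.40 and 16.4 CPM in wt and at 1.55, 9.43 and 0.905 CPM in del/+ libraries. That overlap came from del/+ 2, and without that library Gdpd3 was called. Kctd13, Cdipt, Maz, Hirip3, Tmem219 and Prrt2, which lie among or beside the mutated genes, had log2 fold changes between -0.004 and 0.14. Mapk3, which encodes the kinase ERK1, had one of 0.23 (edgeR adjusted p = 0.94). All del/+ values lay above all wt values in 3 of the 19 genes and below them in 2, against 4.24% and 5.41% of all genes. The 2 were Doc2a (log2 fold change -0.51, at 1.92 to 3.42 CPM) and Kif22 (-0.35), each with an edgeR adjusted p of 0.94. By qPCR the study found no change in the nearby genes Hirip3, Tmem219, Asphd1, Cdipt and Prrt2.

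In the lysate RNA of males with the whole interval deleted (16p11.2 del/+, 3 libraries against 4 wt), the same genes gave a scale for the loss of 1 copy. In 1 fit over the 13 lysate libraries, 15 of 20 tested identifiers of the interval outside the mutated genes were called in the 16p11.2 line, with a median log2 fold change of -1.05. Sez6l2 had a log2 fold change of -1.38 in that line and -0.53 in the 3g line, Taok2 -1.04 and -0.11, and Mvp -1.47 and -0.07. The difference between the lines was called by edgeR for 18 of 14740 genes (0.122%), 17 of them higher in the 3g contrast, and 882 (5.98%) had an unadjusted p under 0.05. Sez6l2 (difference 0.85, SE 0.16, adjusted p = 0.0408) and Taok2 (difference 0.93, SE 0.16, adjusted p = 0.0161) were among them. The difference of Mvp, 1.39, was not called (SE 0.33, edgeR adjusted p = 0.244). A further 12 were other genes of the interval. Of the 4 that are not on the list of the interval, Cd2bp2 and Tbc1d10b are neighbours of Sez6l2 in the RefSeq order. Their log2 fold changes were -1.10 and -1.17 in the 16p11.2 line, near the median of the listed genes, and 0.15 and -0.06 in the 3g line. Gm44579, the only 1 with a lower 3g effect, is named after its value was seen.

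The last of the 4 was Rpl29, whose effects were 1.35 in the 3g line and -0.55 in the 16p11.2 line (difference 1.90, SE 0.30, edgeR adjusted p = 0.00932). Scaled together, Rpl29 was between 6.08 and 7.997 CPM in 3g wt, 15.5 and 19.1 CPM in 3g del/+, 18.1 and 27.3 CPM in 16p11.2 wt, and 8.97 and 19.5 CPM in 16p11.2 del/+ libraries. The 3g wt libraries were thus below every library of the other 3 groups. Its neighbours Poc1a and Abhd14a were likewise lower in 3g wt (1.86 to 2.85 and 2.94 to 4.498 CPM) than in 16p11.2 wt libraries (5.12 to 10.1 and 8.38 to 12.1 CPM). Cfap54, in turn, was at 16.1, 59.0, 54.8 and 73.5 CPM in the 16p11.2 wt libraries, where the first value is within the range of the 3g del/+ libraries, 15.3 to 21.9 CPM. Its difference between the lines was -1.98 (SE 0.46, edgeR adjusted p = 0.221). Ndn was between 29.8 and 44.7 CPM over the 7 libraries of the 16p11.2 line and its difference was -0.90 (SE 0.18, edgeR adjusted p = 0.0731). The lines were deposited in separate tables, so levels set side by side across lines cannot be told apart from a difference between their preparations.

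**Figure D3:**
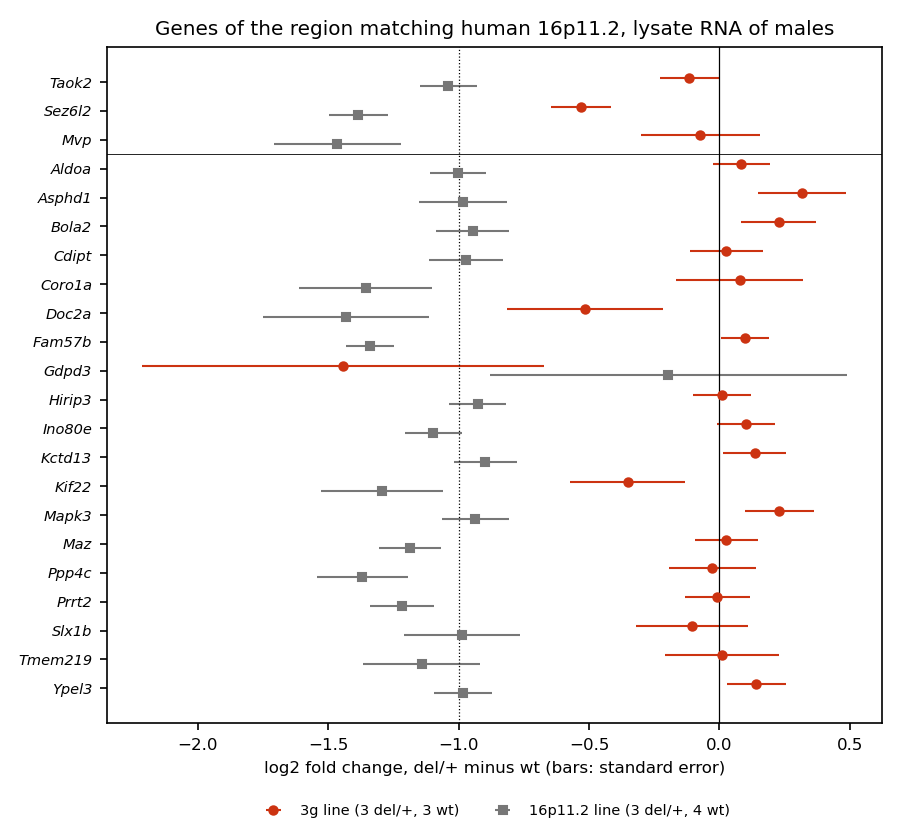
Log2 fold change of del/+ minus wt (horizontal axis, bars for the standard error) in lysate RNA for the mutated genes and the other tested genes of the interval (vertical axis), in the 3g (red) and the 16p11.2 line (grey), from 1 fit of 13 libraries. Most grey points lie near -1, marked by the dotted line, and most red points near 0, apart from Sez6l2, Doc2a, Gdpd3 and Kif22.

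Gene groups were described by their counts and medians. The 79 cytosolic ribosomal protein genes had a median log2 fold change of 0.08, with 66 above and 13 below 0. That median was between 0.018 (without wt 3) and 0.18 (without del/+ 1) when single libraries were left out, and 0.031 without del/+ 2 and 0.14 without wt 2. At an unadjusted p under 0.05, 5 were higher, against 2.85% of all genes, and 1 was lower. The 5 were Rpl29, Rps15a, Rpl13a, Rpl11 and Rpl12, of which the last 4 had log2 fold changes between 0.21 and 0.38, and the 1 was Rpl30, at 42.5, 46.5 and 44.4 CPM in wt and 28, 26.4 and 38.5 CPM in del/+ libraries (log2 fold change -0.52, edgeR adjusted p = 0.771). The summed level of the list overlapped, with 6423 to 7735 CPM in wt and 6717 to 8406 CPM in del/+ libraries. From its RNA-seq of other males, the study reported a set of ribosomal genes as lower in del/+ striatum of both lines. Whether these genes differ between that RNA-seq and lysate RNA was not tested. Of 46 translation factors, 2 were higher (Eif3b and Eef1b2) and 0 lower, with a median of 0.05 (0.0019 without del/+ 2 and 0.11 without del/+ 1), and of 75 nuclear genes of oxidative phosphorylation 1 was higher (Atp5e) and 0 lower, with a median of 0.07 and 62 members above 0. The 13 mitochondrially encoded genes had a median of -0.02 and none at an unadjusted p under 0.05 by edgeR.

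Lists of signaling around the mutated genes were read against the 4.92% of all genes with an unadjusted p under 0.05. Of 16 genes of the TAO kinase, p38 and JNK arms, none had an unadjusted p under 0.05 in edgeR and the median was 0.03, with Taok3, Map3k4 and Map3k1 of smallest p (log2 fold changes 0.15, -0.15 and -0.17). In the Sez6 family list, none of 8 had one, and the paralog Sez6 was at 281, 332 and 291 CPM in wt and at 275, 254 and 270 CPM in del/+ libraries (log2 fold change -0.18). The vault proteins Tep1 and Parp4 had log2 fold changes of -0.32 and -0.09. Of 37 genes of the ERK cascade, 2 had an unadjusted p under 0.05, both higher, namely Dusp7 and Hras (0.25 and 0.29). None of 14 factors of nonsense-mediated decay had one, where Upf1 and Upf2 had values of -0.24 and 0.18. None of these lists held a member called by edgeR or by DESeq2.

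Immediate early genes, which neurons switch on with activity, had a median log2 fold change of 0.06 over 21 members, with 3 higher at an unadjusted p under 0.05 and 0 lower, against 2.85% and 2.07% of all genes. Beside Fosb these were Egr1 (115, 164 and 121 CPM in wt and 166, 164 and 188 CPM in del/+ libraries) and Fosl2 (30.02, 34.4 and 28.9 CPM in wt and 36.3, 34.5 and 53.6 CPM in del/+ libraries). In both the highest wt value, that of wt 2, was close to the lowest del/+ value. Other members varied within wt, as Npas4 was at 7.52, 32.4 and 9.25 CPM, and without wt 2 edgeR called Fosb and Npas4 and the median of the list was 0.26. Arc was at 109, 147 and 52.3 CPM in wt and at 114, 85.6 and 95.4 CPM in del/+ libraries. Of 16 targets of the integrated stress response, Atf5 and Sesn2 were higher at an unadjusted p under 0.05 (0.39 and 0.51).

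Cell type markers gave the makeup of the samples, and in bulk tissue fewer cells of a type and less RNA per cell cannot be told apart. Markers of spiny projection neurons had a median of -0.02 over 18 genes shared by both pathways, -0.08 over 9 of the direct pathway and 0.01 over 7 of the indirect pathway, and none had an unadjusted p under 0.05 in edgeR. With single libraries left out these medians ran from -0.070 to 0.062, from -0.18 to -0.028 and from -0.14 to 0.12, with the lowest without del/+ 3, wt 1 and wt 1 and the highest without wt 2, wt 2 and del/+ 2. The dopamine receptor gene Drd1 had a log2 fold change of -0.18, and Drd2 one of 0.19. Of 14 interneuron markers, 7 were above and 7 below 0 (median -0.008). At an unadjusted p under 0.05, Pvalb was higher (0.30) and Pthlh lower (-0.76). Over all genes, 2.85% were higher and 2.07% lower at that level, and the same shares stand beside the lists that follow. Of 41 genes of the glutamate synapse only Grm3 had an unadjusted p under 0.05 (-0.35), of 17 of the GABA synapse none had by edgeR, and of 17 dopamine, opioid and cannabinoid genes only Ddc had (-0.64). The 12 oligodendrocyte markers had a median of -0.10, with 11 below 0 and Aspa at an unadjusted p under 0.05 (-0.35), and all 6 precursor markers were below 0, with Olig2 alone past it (-0.28). The oligodendrocyte median was between -0.22 (without wt 1) and -0.028 (without del/+ 1) with single libraries left out. Astrocyte, microglia and vessel markers had medians between -0.12 and -0.02 and none with an unadjusted p under 0.05 in edgeR.

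Blood and meningeal markers lay mostly above 0. All 5 blood markers were above 0 (median 0.41), and Hbb-bt, Hbb-bs and Hba-a2 were higher at an unadjusted p under 0.05, as were 2.85% of all genes. The summed level of the 5 was 221 to 236 CPM in wt and 246 to 339 CPM in del/+ libraries, which did not overlap, and the highest value was that of del/+ 3. Without that library the median of the list was 0.25. Of 8 meningeal markers, 7 were above 0 (median 0.29, and 0.18 without del/+ 2), Igf2 had an unadjusted p under 0.05 (114, 133 and 118 CPM in wt and 156, 155 and 172 CPM in del/+ libraries), and their summed level was 181 to 216 CPM in wt and 245 to 255 CPM in del/+ libraries. Most of that sum was Igf2 itself and Ptgds, which overlapped at 52.4 to 72.0 CPM in wt and 70.1 to 77.5 CPM in del/+ libraries. None of these genes was called by edgeR or DESeq2. Cortical markers had a median of 0.14 over 12 genes with none past an unadjusted p of 0.05 by edgeR and overlapping sums (411 to 792 CPM in wt and 500 to 812 CPM in del/+ libraries), and the median was 0.43 without wt 1 and -0.099 without wt 2. Of 7 markers of other regions, 2 were above and 5 below 0 (median -0.08). Of these, 1 was higher at an unadjusted p under 0.05, namely Slc17a6 (0.66). The part of blood, meninges and cortex in the other results was not tested.

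Among genes that the study named from its RNA-seq of other mice of the series, which is not independent of the series though none of these 6 libraries entered it, 9 shared with a list of autism genes were all tested. Gpx1 was higher (0.31) and Msantd2 and Prpf39 lower (-0.44 and -0.32) at an unadjusted p under 0.05, beside 2.85% higher and 2.07% lower among all genes. A separate list of 10 genes, none of them among these 9, had 5 that were tested, including Tuba1c and Lars2. None of the 5 was past that level by edgeR, and their median was -0.12, or 0.059 without del/+ 2. The 8 tested genes of antigen presentation by MHC class I had a median of 0.16, and the 7 of choroid plexus and ependyma one of 0.15 (-0.11 without wt 1), likewise with none past an unadjusted p of 0.05 by edgeR.

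**Figure D4:**
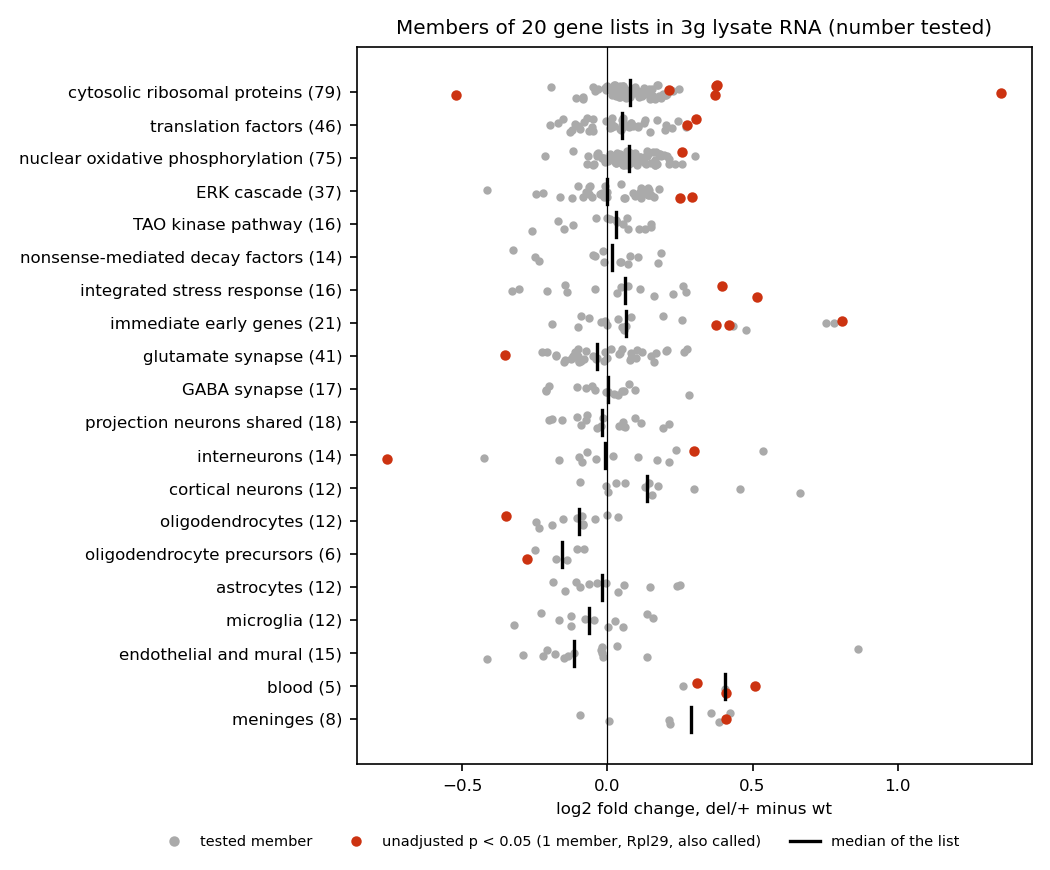
Log2 fold change of del/+ minus wt (horizontal axis) for each tested member (points) of 20 gene lists (vertical axis, number tested in brackets), with the median of each list as a bar and members with an unadjusted p under 0.05 in red. Rpl29 stands alone at the right of the ribosomal proteins, and the medians of blood (0.41) and meninges (0.29) are farther from 0 than the others shown.

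The genes were then followed in other readouts of the 3g line, namely ribosome footprints, which are the messenger RNA pieces covered by ribosomes, from the same 6 lysates, and RNA-seq of other mice with 4 del/+ and 4 wt libraries per sex. The footprint libraries were shallow, with 342052 to 422918 counts in wt and 527917 to 678130 counts in del/+ mice. In footprints edgeR called 1 of 7553 genes (0.0132%), the Wnt receptor gene Fzd8 (log2 fold change -1.68 there and -0.16 in lysate RNA), and 602 (7.97%) had an unadjusted p under 0.05. In RNA-seq of males 0 of 19081 genes were called by edgeR (0%), 1 by DESeq2, and 274 (1.44%) had an unadjusted p under 0.05. In RNA-seq of females 1 of 19024 was called (0.00526%), namely Sez6l2, and 2098 (11%) had an unadjusted p under 0.05. DESeq2 called 109 genes in females, and edgeR called 175 without wt 39. From RNA-seq of these groups the study reported larger sets of differentially expressed genes in both sexes, with more in males than in females. Its main text names no test or threshold for them, so its counts and those given here are unlike measures. In the male RNA-seq the library wt 17 stood apart for several genes, so gene values are given with and without it. Among genes also tested in lysate RNA, 171 of 13944 had an unadjusted p under 0.05 in these males with that library and 416 of 13958 without it.

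Sez6l2 was lower in del/+ mice in each readout. Its log2 fold change was -0.85 in footprints (edgeR adjusted p = 0.399), where 274, 287 and 281 CPM in del/+ lay below 551, 553 and 412 CPM in wt libraries. In RNA-seq it was -0.57 in males (-0.53 without wt 17) and -0.49 in females. Taok2 was at -0.15 in footprints, -0.02 in males (-0.03 without wt 17) and -0.02 in females. Mvp, with at most 7 footprint counts in a library, was not tested there. In RNA-seq it was at -0.37 in males (-0.41 without wt 17) and -0.48 in females (edgeR adjusted p = 0.0663), and in females all del/+ values (6.08 to 6.60 CPM) were below all wt values (8.59 to 9.21 CPM). Whether the Mvp effect differs between lysate RNA and RNA-seq was not tested.

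Cfap54 had few footprints, 18, 22 and 18 counts in wt and 7, 10 and 5 in del/+ libraries, and a log2 fold change of -1.998 (edgeR adjusted p = 0.0917). In the RNA-seq of other mice its groups were close together. It was between 13.2 and 18.6 CPM in wt and 14.4 and 19.9 CPM in del/+ males (log2 fold change 0.10, or 0.005 without wt 17), and between 17.6 and 19.0 CPM in wt and 16.3 and 16.8 CPM in del/+ females (-0.13, edgeR adjusted p = 0.354). Ndn had a log2 fold change of -0.74 in footprints (edgeR adjusted p = 0.627), where wt 3 at 45.2 CPM lay within the del/+ range of 40.5 to 79.2 CPM. In RNA-seq males it was at -0.59, which rested on wt 17 with 212 CPM against 72.6 to 87.7 CPM in the other wt males, and it was at -0.12 without that library. In females it was at -0.02. Rpl29 had 4, 4 and 6 footprint counts in wt and 2, 3 and 3 in del/+ libraries, too few to be tested. In RNA-seq it was at 61.1 to 99.9 CPM in males, above all lysate libraries, and its log2 fold change was -0.13 in males (0.05 without wt 17) and -0.15 in females (edgeR adjusted p = 0.284).

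Poc1a and Abhd14a, the neighbours of Rpl29, had log2 fold changes of -0.05 and 0.03 in RNA-seq males (0.18 and 0.02 without wt 17) and of 0.17 and -0.07 in females. Fbxo6 was at -0.75 in footprints, -0.26 in males (-0.16 without wt 17) and -0.09 in females, and Fosb at -0.23, -0.07 (-0.08 without wt 17) and 0.23. Of 674 genes with an unadjusted p under 0.05 in lysate RNA that were tested in RNA-seq males, 28.5% had the same sign there, against 40.3% of all genes tested in both. Both shares rested on wt 17, and without it they were 51.9% and 51.0%. In females they were 61.4% of 677 genes and 54.2% of all. With all libraries, 4 genes had an unadjusted p under 0.05 in lysate RNA and in RNA-seq of both sexes. Among genes also tested in lysate RNA, 171 of 13944 were past that level in males and 1741 of 13934 in females. How many genes chance would give in all 3 was not tested. Of the 4, only Sez6l2 and Fam19a2, a secreted neuronal protein gene, had the same sign in all 3 (0.34, 0.32 and 0.34 for Fam19a2). The male value of Fam19a2 is given only with wt 17.

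**Figure D5:**
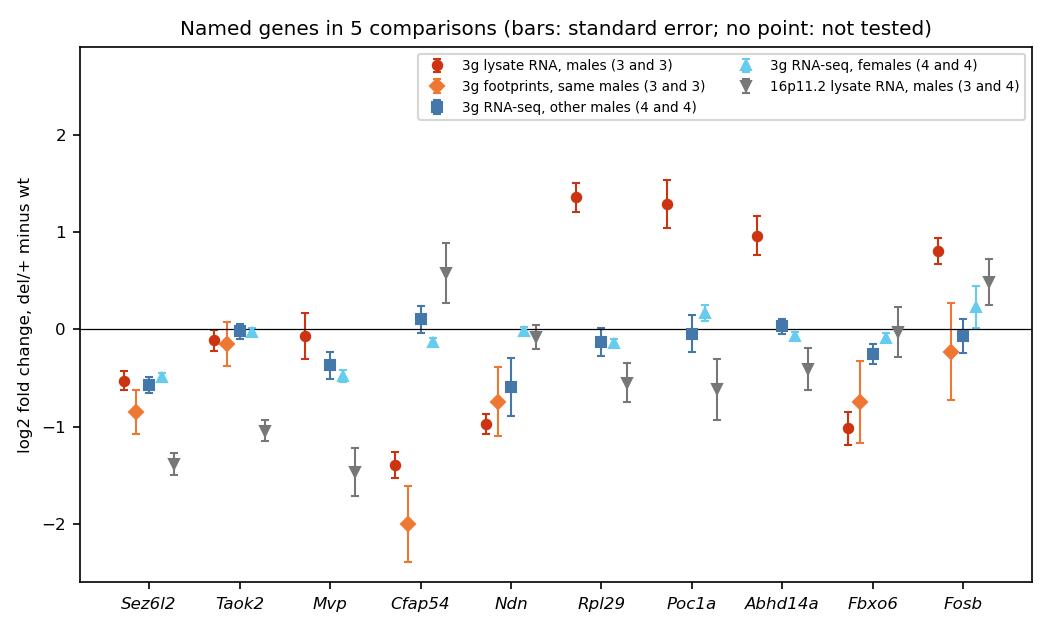
Log2 fold change of del/+ minus wt (vertical axis, bars for the standard error) of 10 named genes in 5 comparisons, with the number of del/+ and wt libraries in the key. Sez6l2 is below 0 in each of the 5, whereas Cfap54 is low in lysate RNA and footprints of the same males and near 0 in the RNA-seq of other mice.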

How the data were processed

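The values deposited by the authors are raw counts, whole numbers for each Ensembl gene, in 1 table for each line and assay. Per the labels, lysate RNA and footprints came from the same lysate and were read as single reads. The submitters' processing notes name Bowtie2 and mm39 for these libraries, and HTSeq and mm10 for the RNA-seq, whose reads the authors processed with the bcbio-nextgen pipeline. The counter of the lysate libraries, its annotation and its use of strand are not given in the sources used here, so overlapping and antisense genes cannot be told apart. The labels' extraction text names human brains although the organism and tissue are mouse striatum. The lysate tables hold 18411 genes, and their 8 counts with 7 digits in the 3g lysate RNA all end in 0, as after rounding. Symbols came from a table of Ensembl IDs.

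Counts were filtered with filterByExpr, normalized with TMM and tested with glmQLFTest in edgeR. The standard error of a log2 fold change was derived from that test, as its absolute value divided by the square root of the F statistic. The p-values were adjusted by the Benjamini-Hochberg method, and genes with an adjusted p below 0.05 were called whatever their fold change. The line difference was tested over 13 libraries in 1 fit. Single genes were tested by an exact permutation test of log2(CPM + 0.5). DESeq2 1.42.0 and limma 3.58.1 served as alternatives beside edgeR 4.0.16, all in R 4.3.3, and scripts were tested on simulated data. Genes named are the mutated genes and those of the interval, the 12 per direction of largest change among called genes, filled with those of smallest p, and the called members and the 3 of smallest p of each list. Some genes that this rule or a neighbour count covers are not reported here. Others are named beside them as neighbours, as members under an unadjusted p of 0.05 or after their values were seen. The members and gene lists were chosen with earlier results of these data known. Neighbours follow the gene order of RefSeq, GRCm38.p6, where 97.3% of the tested genes could be placed. Lysate libraries were numbered within a group in the order of their labels, and RNA-seq libraries carry their labelled animal numbers.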

Additional observations from a re-analysis of the deposited data

Results flagged for a closer look

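In groups of 4 libraries, 1 library stood far from the others (Dixon's test) in 4 of 30 groups tested over the mutated and called genes, where chance gives about 1 in 20. In RNA-seq wt males, library 17 was at 99.9 CPM for Rpl29 (62.4 to 68.0 CPM in the others) and at 212 CPM for Ndn (72.6 to 87.7 CPM). In RNA-seq wt females, library 39 was at 318.9 CPM for Sez6l2 (290 to 292 CPM), and in 16p11.2 lysate RNA wt 2 was at 52.1 CPM for Sez6l2 (67.0 to 68.2 CPM).

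The effect differed between the lines in lysate RNA by edgeR's test of the difference for 15 named genes, given here as the 3g minus the 16p11.2 log2 fold change. The difference was 0.85 for Sez6l2, 0.93 for Taok2 and 1.90 for Rpl29. Among the other genes of the interval it was 1.21 for Maz, 1.03 for Kctd13, 1.20 for Ino80e, 1.09 for Aldoa, 1.34 for Ppp4c, 0.94 for Hirip3 and 1.12 for Ypel3. It was 1.21 for Prrt2, 1.30 for Asphd1, 1.17 for Bola2, 1.44 for Fam57b and 1.17 for Mapk3. Rpl29 is the only 1 of the 15 outside the interval.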

How the results depend on the processing

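In 3g lysate RNA the count of 3 was the same with RLE and upper quartile normalization, limma-voom, a term for the run of animal numbers and, added after seeing the data, without the mitochondrially encoded genes. It became 13 with DESeq2, 9 without a filter on low counts, 5 with at least 10 counts in each library, 7 at an adjusted p under 0.10, 707 at an unadjusted p under 0.05 and 1 with all 13 lysate libraries in 1 fit. With single libraries left out it ran from 3 to 12 (12 without del/+ 1, 6 without wt 2, 5 without wt 1 or del/+ 2), each with the 3 calls. Without del/+ 2 and wt 2 together, chosen after seeing the data, Cfap54, Gdpd3 and Npas4 were called. Ndn and Rpl29 then had an adjusted p of 0.0587, and Mvp a log2 fold change of 0.054. With single libraries left out that of Mvp ran from -0.21 (without wt 1) to 0.069 (without wt 3), and it was 0.034 without del/+ 2. Footprint calls became 13 with DESeq2 and 127 without a filter, and ran from 0 (without any 1 del/+ library) to 24 with single libraries left out (24, 21 and 5 without wt 1, wt 2 and wt 3). RNA-seq calls became 1 with DESeq2 and ran from 0 to 1 in males (1 without wt 24), and became 109 with DESeq2 and 158 without a filter and ran from 1 to 175 in females, the highest without wt 39 and 18 without del/+ 37. Calls of the line difference became 36 with DESeq2 and ran from 8 to 18, the lowest without 3g wt 3 and 12 without 3g wt 1. The cause of these shifts was not tested. No paired analysis was possible because del/+ and wt animals carry different numbers in the labels and nothing pairs them.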
